A study of Mus musculus with 2 samples.

Results

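The GATA factor genes and the genes of their binding partners were examined in a list of differentially methylated regions between PDGFRα+ and CD137+ adipose progenitors. The 10 genes were Gata2, Gata3, Gata4, Gata5, Gata6, the Friend of GATA genes Zfpm1 and Zfpm2, and the genes of the blood-type GATA complex Tal1, Lyl1 and Lmo2. A region was counted for a gene when it overlapped the gene body or the 50 kb on either side of it. The list kept 51 such regions of its 34139, each of them at 1 of the 10 genes only. The genes are 10 of 21887 protein-coding genes, and they were chosen by family with the position, sign and score of regions in this same list already known, so these values are given as a description.

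The series holds whole-genome bisulfite sequencing, in which cytosines that still read as cytosine after conversion mark methylated positions. There was 1 library of PDGFRα+ progenitors (labelled CD140) and 1 library of CD137+ progenitors, both of C57BL/6 mice. The cells were sorted with magnetic beads from adipose tissue that the labels name as SAT or VAT, grown, and taken into an adipogenic medium. Both libraries carry the label DEX treatment, so nothing between them can be read as an effect of that treatment, and the labels used here do not say from which fat each library came or how many animals went into it. The progenitor identity of the cells could not be checked against marker expression, since only methylation differences were analysed here.

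Each region has a position and a signed score given by the authors. The score is not a methylation level, its unit is not stated, and wider regions had larger scores, with a median absolute score of 67.5 at 100 bp or wider against 34.3 below that width. The sign is not defined either. The list names the PDGFRα+ sample before the CD137+ sample, so that a negative score would mean lower methylation in PDGFRα+ cells if the authors subtracted in that order. The depth behind each region is unknown. Each group is a single library, so replicate error is unknown and no test was made. All values below describe these 2 libraries.

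GATA proteins are zinc finger transcription factors that bind short DNA sites with GATA at their core. GATA2 and GATA3 are made in fat cell precursors, where they hold back differentiation by repressing Pparg and by binding C/EBP proteins. GATA4, GATA5 and GATA6 act mainly in heart, gut and other mesoderm and endoderm derivatives. FOG1 and FOG2, the products of Zfpm1 and Zfpm2, do not need to bind DNA themselves. They attach to a zinc finger of the GATA protein and recruit corepressors. In blood and endothelial precursors GATA1 or GATA2 joins TAL1 or its relative LYL1, which are basic helix-loop-helix proteins, and LMO2 bridges them.

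RefSeq promoters (GRCm38.p6, the assembly that mm10 names) were matched for 6 of the 10 genes, at 8 start sites. No region of the list overlapped the 250 bases before any of these 8 starts (0 of 8). How many of all promoters a region overlapped was not counted, so 0 of 8 is not read as particular to these genes. The bases before 5 of the 8 starts are shown because strong regions described below lie near these starts or in the same gene or window. Capitals mark CG, the dinucleotide at which most mammalian methylation is placed.
Gata2, outer start (chr6:88193641-88193890, plus strand): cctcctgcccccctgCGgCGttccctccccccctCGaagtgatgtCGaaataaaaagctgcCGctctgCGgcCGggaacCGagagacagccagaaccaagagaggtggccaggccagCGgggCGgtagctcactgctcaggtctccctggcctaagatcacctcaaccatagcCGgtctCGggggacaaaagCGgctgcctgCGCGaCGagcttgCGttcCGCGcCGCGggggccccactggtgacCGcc
Gata2, inner start (chr6:88198414-88198663, plus strand): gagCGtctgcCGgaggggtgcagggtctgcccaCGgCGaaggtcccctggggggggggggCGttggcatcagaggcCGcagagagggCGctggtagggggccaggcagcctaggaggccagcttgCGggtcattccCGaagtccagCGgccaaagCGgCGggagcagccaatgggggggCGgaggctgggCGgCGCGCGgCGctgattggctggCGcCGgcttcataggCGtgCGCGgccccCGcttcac
Gata3 (chr2:9878601-9878850, minus strand): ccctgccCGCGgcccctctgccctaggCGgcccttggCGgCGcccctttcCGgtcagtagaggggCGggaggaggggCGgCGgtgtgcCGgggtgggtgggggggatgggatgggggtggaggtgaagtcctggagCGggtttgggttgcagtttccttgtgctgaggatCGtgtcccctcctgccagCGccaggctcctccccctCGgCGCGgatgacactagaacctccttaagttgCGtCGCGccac
Zfpm1 (chr8:122281891-122282140, plus strand): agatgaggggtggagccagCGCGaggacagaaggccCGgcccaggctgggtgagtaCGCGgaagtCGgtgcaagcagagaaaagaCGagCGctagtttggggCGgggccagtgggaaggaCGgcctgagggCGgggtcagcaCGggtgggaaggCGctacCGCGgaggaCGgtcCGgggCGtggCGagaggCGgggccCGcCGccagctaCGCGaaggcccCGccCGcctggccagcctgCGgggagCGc
Lyl1 (chr8:84701207-84701456, plus strand): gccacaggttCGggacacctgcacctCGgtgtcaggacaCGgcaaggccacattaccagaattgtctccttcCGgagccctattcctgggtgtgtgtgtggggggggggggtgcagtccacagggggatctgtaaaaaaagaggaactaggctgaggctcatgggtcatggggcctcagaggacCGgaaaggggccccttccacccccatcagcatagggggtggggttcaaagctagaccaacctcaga

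The stretches before the GATA2, GATA3 and FOG1 starts were rich in CG and the one before Lyl1 was not. There were 22 and 24 CG before the Gata2 starts, 19 before the Gata3 start and 28 before the Zfpm1 start. Of 32851 promoters of the same length, from 27025 genes, 14.8%, 12.0%, 19.7% and 7.61% had at least as many. These are more genes than the 21887 protein-coding ones behind the other shares, so the promoter shares have a different background. The stretch before Lyl1 held 5 CG, and 55.6% of promoters had at least as many, the median being 6.00. The Gata5 stretch, not shown, held 22 CG. The 2 stretches before the starts of Tal1 held 6 and 16. A GATA site was searched on both strands as AGATAA, and also with T as its opening base, with G as its closing base, or with both of these changes. It was found in 1 of the 8 stretches, the Tal1 stretch with 6 CG, whereas 26.5% of all promoters held one. The E-box CANNTG, the kind of site that TAL1 and LYL1 bind with E proteins, was found once each (1) before Gata5 and Lyl1, and 66.2% of all promoters held it. These letter matches are not shown to be bound sites.

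At least 1 region lay within 50 kb of 9 of the 10 genes, against 68.5% of all protein-coding genes. Tal1 had none. Regions with a negative score were at 9 of the genes (58.6% of all protein-coding genes) and regions with a positive score at 5 (38.1%). Negative regions alone were found at 4 genes, namely Gata3, Gata6, Zfpm2 and Lmo2 (30.4% of all protein-coding genes), and positive regions alone at none, 0 of 10 (9.91%). Of the 51 regions 15 were positive and 36 negative. The positive share of 29.4% (95% Wilson interval 18.7 to 43.0, for the counting of regions only) stood beside 32.6% in the whole list. The interval treats regions as independent, although neighbouring regions often shared a sign, so it is likely too narrow.

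**Figure D1:**
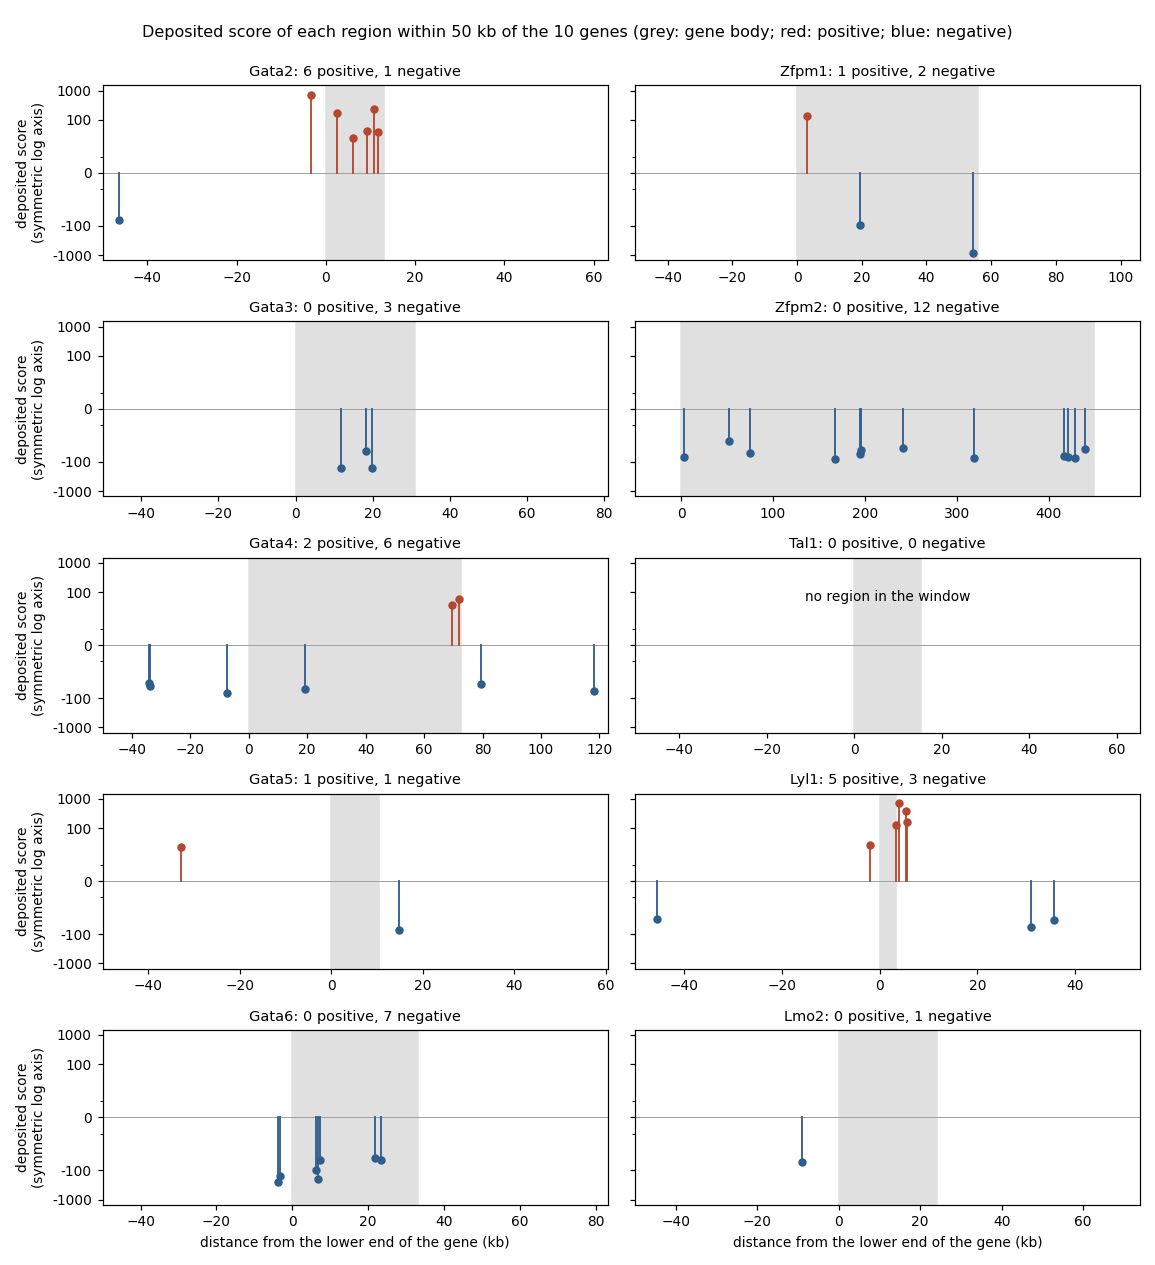
Deposited score of each region (y axis, symmetric log scale) against its distance in kb from the lower end of the gene (x axis), with 1 panel per gene, the gene body in grey, positive regions in red and negative regions in blue. The 6 positive regions of Gata2 sit in and just below the gene, the 3 regions of Gata3, 7 of Gata6 and 12 of Zfpm2 are all negative, and Tal1 has no region.

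Strong regions, those scoring at least 100 in either direction, made up 14 of the 51, or 27.5%, against 15.5% of the whole list. Of these 14, 8 were positive and 6 negative, while 32.8% of the strong regions of the whole list were positive. Of the 8 positive ones, 4 lay in Nfix beside Lyl1. Without the Lyl1 window, strong regions were 10 of 43, or 23.3%, with 4 positive and 6 negative. The 14 lay at 5 of the 10 genes (24.8% of all protein-coding genes had one), namely Gata2, Gata3, Gata6, Zfpm1 and Lyl1. The median absolute score of the 51 was 58.6 (quartiles 38.8 and 132) and that of the whole list 49.4 (33.1 and 77.2). Their median width was also larger, at 138 bp against 112 bp. In the whole list, 25.9% of regions of 100 bp or wider were strong, against 1.19% of narrower ones. Divided by width, the median absolute score of the 51 was 0.503 per bp against 0.430 per bp. Regions inside the genes were found at 6 of the 10 (28.9% of all protein-coding genes). They numbered 31, of which 23 were negative, and the other 20 lay outside, 13 of them negative. The 28.9% was not matched for length, and a longer gene has more room for a region. The median length of protein-coding genes was 17.2 kb. Of the 6 genes, Gata2 was shorter (13.1 kb), and Gata3, Gata6, Zfpm1, Gata4 and Zfpm2 were longer (30.9 to 449.6 kb).

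Regions per length differed widely among the genes. Lyl1 had 7.74 regions per 100 kb of gene plus window, Gata2 6.19, Gata6 5.26 and Gata4 4.63. The median over all protein-coding genes was 0.955 (quartiles 0 and 2.05), and these 4 genes stood at percentiles 99.5, 98.7, 97.5 and 96.0 of them. These counts include regions nearer to another coding gene. Keeping only regions nearest to the gene left 0 of 8 at Lyl1, 6 of 7 at Gata2, 7 of 7 at Gata6 and 5 of 8 at Gata4. Gata3 (2.29), Zfpm2 (2.18), Zfpm1 (1.92) and Gata5 (1.81) lay near the upper quartile, and Lmo2 (0.807) and Tal1 (0) below the median. Zfpm2 had more regions than any other of the 10 genes, 12, but it is also the longest at 449.6 kb.

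**Figure D2:**
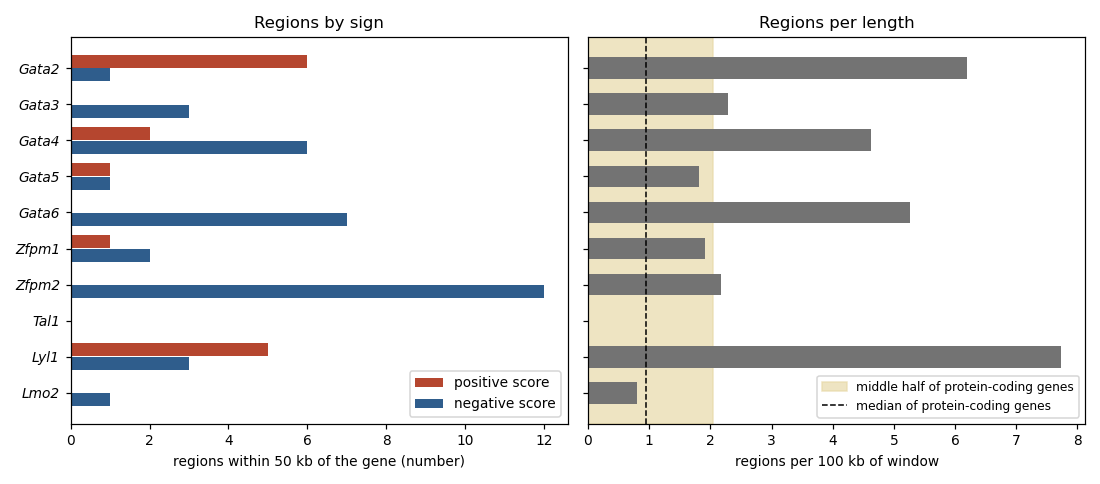
Left, number of regions within 50 kb of each gene by sign of the deposited score. Right, regions per 100 kb of gene plus window, with the median (0.955) and the middle of the distribution (0 to 2.05) of all protein-coding genes. Lyl1, Gata2, Gata6 and Gata4 lie well above this range, but every region of the Lyl1 window was nearer to another coding gene.

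Gata2 carried positive regions over and just before the gene, and Gata3, which acts beside it in fat cell precursors, carried negative regions. Gata2 (chromosome 6, 88193891 to 88207032, mm10) had 7 regions, 6 of them positive. The strongest, of 751 bp at 88190129 to 88190879, scored 710.5, which ranked 20 among the 11146 positive regions. It ended 3.01 kb before the gene, upstream of the outer start printed above, and overlapped the noncoding gene Gm38708. A positive region of 217 bp (88196314 to 88196530, score 170.1) lay between the 2 starts, 2.24 kb before the inner one, and overlapped Gm38708 as well.

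The other 4 positive regions of Gata2 were further into the gene. They scored 24.1 (61 bp), 42.5 (57 bp), 237 (401 bp at 88204467 to 88204867) and 39.2 (130 bp), at 1.33, 4.37, 6.00 and 6.95 kb after the inner start. The 6 positive regions followed one another over 15.6 kb with no negative region among them, and the next regions of the list on both sides were negative. The single negative region in the window scored -61.8 over 204 bp. It was 46.1 kb below the gene and nearer to the coding gene Rpn1.

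At Gata3 (chromosome 2, 9857078 to 9887953) all 3 regions were negative and inside the gene. They scored -163 over 254 bp (9876886 to 9877139), -43.1 over 60 bp (9875356 to 9875415) and -155 over 252 bp (9868708 to 9868959). Their centres were 1.59, 3.21 and 9.77 kb after the start whose promoter is printed above. The 3 regions belonged to a run of 9 negative regions in a row in the list, which reached over 589 kb and so well beyond the window. Nearest to the window outside it was a region of score -161 at 85.8 kb below the gene. Run lengths were not counted over the whole list, in which 67.4% of regions were negative. The single region of Lmo2 also stood in a run of 9, over 493 kb. No region of Gata3 scored as far from 0 as the strongest at Gata2, but per bp the regions of Gata3, at 0.617 to 0.718, lay within the range of those at Gata2, 0.302 to 0.946.

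Among the heart and gut members, Gata6 had 7 negative regions and no positive one, 0 of 7, where 67.4% of the whole list was negative. The 7 formed part of a run of 8 negative regions in a row over 96.8 kb. Run lengths over the whole list were not counted. The gene lies on chromosome 18 (11052510 to 11085636). A pair of regions below the gene overlapped the noncoding gene Gata6os and scored -243 over 198 bp, 3.77 kb from the gene, and -159 over 207 bp, 3.04 kb from it. Inside the gene, a group of 3 neighbouring regions scored -94.1 (126 bp), -202 (228 bp) and -43.2 (132 bp). A further pair in the upper part of the gene scored -38.8 (99 bp) and -44.5 (76 bp). The median score per bp of the 7 was 0.747, above the upper quartile of the whole list, 0.577. Just beyond the window, 59.3 kb above the gene, a wider negative region of 328 bp scored -206.

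Gata4, an early heart and endoderm factor, had 8 regions, none of them strong, and of both signs. The gene spans 63198914 to 63271712 of chromosome 14. The 2 positive regions stood near its upper end, with scores of 56.7 over 136 bp and 35.1 over 115 bp. The third region inside the gene was negative, with a score of -50.8 over 101 bp. The other 5 lay outside the gene and were negative. Of these, 2 fell in Fdft1 (-31.1 and -37.7) and 1 in Neil2 (-68.0), a pair of neighbouring genes of sterol synthesis and DNA repair. The last 2, on the upper side, scored -32.6 at 6.77 kb and -57.3 at 45.4 kb.

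Gata5, which shares heart and gut roles with Gata4 and Gata6, had no region inside the gene (0). Of its 2 regions, 1 was negative, scoring -72.6 over 146 bp, and lay 5.22 kb before the gene's start in the noncoding genes Gata5os and Gm52543 (chromosome 2, 180339826 to 180339971). The other was positive, scored 22.0 over 55 bp, and was 32.8 kb from the gene and nearer to Rbbp8nl. That score stood at percentile 5.23 of all absolute scores in the list.

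Of the FOG genes, Zfpm1 held few regions, 1 of them very strong, and Zfpm2 held many weak ones. Zfpm1 (chromosome 8, 122281856 to 122337862) had 3 regions, all inside the gene, and among them the strongest score at any of the 10 genes. This region of 439 bp, at 122336049 to 122336487, scored -851 and ranked 15 among the 22993 negative regions. At 1.94 per bp it stood at percentile 99.8 of the list for score per length. It lay 54.1 kb after the start, at the far end of the gene. The region nearest to the start was positive, 2.72 kb after it, with a score of 136 over 201 bp, and also lay in the noncoding gene Gm39269. Between them was a region of 166 bp with a score of -91.3, 19.2 kb after the start.

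Zfpm2 (chromosome 15, 40655042 to 41104592) had 12 regions, all inside the gene, all negative and none strong. Their scores ran from -19.5 to -79.5, with a median absolute score of 58.7. The most negative one covered 277 bp (40822456 to 40822732), and the widest, of 536 bp (40973438 to 40973973), scored -73.1. Most were wide for their score. In the whole list the median score per bp was itself lower for wider regions, 0.396 at 100 bp or wider against 0.472 below that width. At Zfpm2 the median width was 196 bp and the median score per bp 0.239. This was below the lower quartile of the whole list, 0.318, and of its regions of 100 bp or wider, 0.280. A pair of narrower regions had a high score per bp instead. They were 1 of 73 bp with a score of -72.2, at 0.989 per bp, and 1 of 116 bp with a score of -69.0 (40658276 to 40658391), at 0.594 per bp. The other 8 regions scored -19.5 (85 bp), -49.6 (181 bp), -54.7 (292 bp), -38.8 (200 bp), -33.2 (149 bp), -62.7 (192 bp), -69.9 (280 bp) and -34.9 (234 bp), from the lower to the upper end of the gene. The regions formed part of a run of 21 negative regions in a row over 984 kb, and run lengths over the whole list were not counted. Without Zfpm2 the positive share of the windows was 38.5% (24.9 to 54.1) of 39 regions. It was 20.5% (11.2 to 34.5) of 44 without Gata2 and 23.3% (13.2 to 37.7) of 43 without Lyl1.

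**Figure D3:**
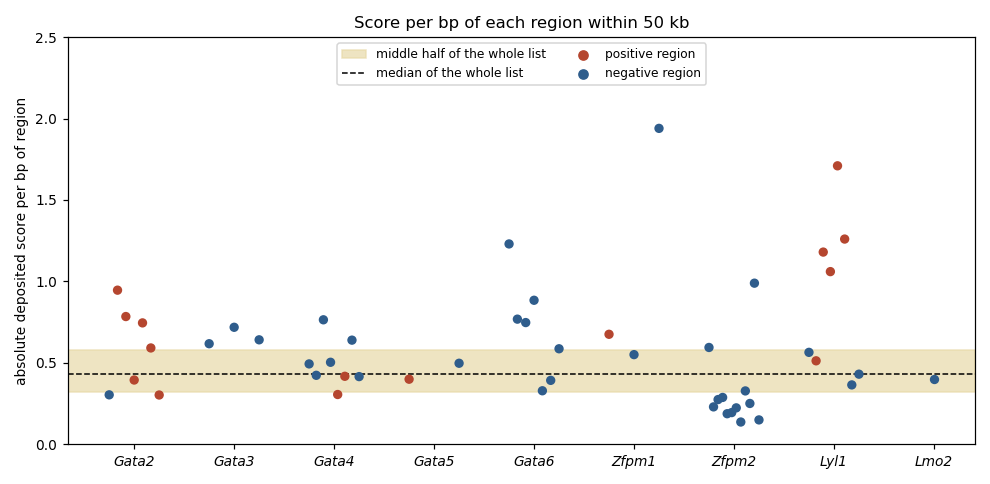
Absolute deposited score divided by width, in score per bp, for each region within 50 kb of the 9 genes that have one, ordered along the chromosome within each gene (red positive, blue negative). The band and dashed line give the middle of the whole list (0.318 to 0.577) and its median (0.430); most Zfpm2 regions lie under the band, and the largest value, 1.94, is at Zfpm1.

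Of the blood-type complex, Lyl1 alone had strong regions, and these lay in another gene. Lyl1 (chromosome 8, 84701423 to 84704716) had no region inside the gene (0), and 8 in its window, 5 of them positive. The strongest, at 84705020 to 84705695, scored 716 over 676 bp and ranked 17 among the positive regions. It began 304 bp past the end of Lyl1 and lay inside Nfix, a nuclear factor I gene, so it cannot be assigned to Lyl1. The strand of Nfix was not looked up, so which end of Nfix lies here is not stated. The 3 regions beside it, with scores of 128 (108 bp), 394 (231 bp) and 167 (133 bp), lay in Nfix too. At 1.06 to 1.71 per bp, all 4 stood at percentile 97.6 or above of the list for score per bp.

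The other 4 regions near Lyl1 were weaker. A positive region of 53 bp, 2.06 kb before the Lyl1 start and inside Trmt1, scored 27.2. A pair of negative regions in Nfix, further from Lyl1, scored -58.6 and -32.7. A negative region 45.5 kb below Lyl1 and nearest to Ier2 scored -29.9. Thus every region of the Lyl1 window was nearer to another coding gene. Lyl1 is a short gene of 3.29 kb with 4 other coding genes in its window.

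Lmo2, the bridging subunit, had 1 region, and Tal1 had 0. The Lmo2 region (chromosome 2, 103948785 to 103948918) was negative, scored -53.9 over 134 bp, and lay 8.98 kb below the gene in the noncoding gene Gm39896. The regions nearest to Tal1 were 123 kb below it, with a score of 28.4, and 556 kb above it, with a score of -36.2.

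Several regions could not be tied to the named gene by position. Of the 51 regions, 10 overlapped another protein-coding gene and 13 were nearer to another protein-coding gene, 8 of these 13 being the regions of Lyl1. A further count of 10 overlapped a noncoding gene, among them Gata6os, Gata5os and Gm38708. Just inside the window edge lay the regions at 46.1 kb of Gata2 (-61.8), 45.4 kb of Gata4 (-57.3) and 45.5 kb of Lyl1 (-29.9), and nearest outside it those at 59.3 kb of Gata6 (-206), 64.2 kb of Gata4 (-76.2), 67.4 kb of Lyl1 (105) and 67.8 kb of Gata2 (-49.9).

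A list of 33 other genes, of GATA complexes and of fat cell factors that GATA2 and GATA3 repress or bind, was counted in the same way. Of these, 31 had a region within 50 kb (68.5% of all protein-coding genes), and 17 had a strong one (24.8%). Only positive regions were found at 3 genes (9.91% of all protein-coding genes), only negative regions at 8 (30.4%) and both signs at 20 (28.1%). The strongest region was positive at 4 of the 17 and negative at 13, and 67.2% of the strong regions of the whole list were negative. The sign counts that follow stand beside a whole list in which 67.4% of regions were negative and 32.6% positive, and no group of genes is set apart from it by a test. Gata1, the red cell member of the family, and Klf1, its red cell partner, had none (0).

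The bridging genes had 3 positive and 15 negative regions over 5 genes. Ldb1, whose product ties LMO2 complexes on distant sites together, had a region of score -382 over 384 bp inside the gene. Its relative Ldb2 had one of 189.9, also inside the gene, and Lmo3 one of -239.6, 0.876 kb from the gene. The E proteins are the partners with which TAL1, LYL1 and their relative TAL2 bind DNA. Over the 3 E protein genes and Tal2, 34 of 43 regions were positive. Tcf4 held most of these, with 30 positive and 3 negative regions, although its strongest region was negative (-363 over 1021 bp). The strongest at Tal2 scored -317, 29.1 kb from the gene, and that at Tcf3 -202.

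Blood and endothelial factors that share sites with GATA2 went both ways, with 16 positive and 23 negative regions over 8 genes. Runx1 had 6 positive and 10 negative regions, the strongest scoring 286, and Erg 5 and 9, the strongest scoring -156. The strongest at Spi1 scored -119 and was 16.9 kb from the gene. Corepressor genes had 6 positive and 27 negative regions over 8 genes. Ctbp1, whose product is recruited by FOG proteins, had a region of score -239 at 22.7 kb. Cbfa2t3 had one of -288 inside the gene and Cbfa2t2 one of 191 at 13.2 kb.

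Cardiac partners of GATA4 had 6 positive and 38 negative regions over 5 genes. Tbx5 had 20 negative and 2 positive regions, the strongest of score -876 over 1057 bp inside the gene. Hand2 had 10 negative and 1 positive, the strongest of score -274 at 1.73 kb. Srf had one of -134 and Nkx2-5 one of -101, at 16.1 and 47.9 kb. Among the fat cell genes of the list, Pparg, which GATA2 and GATA3 repress, had 6 positive regions and 1 negative region. The strongest at Pparg scored 102 over 333 bp. Cebpa and Cebpb, which encode C/EBP proteins, had 3 and 2 regions, none of them strong, with strongest scores of -61.2 and -66.9.

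**Figure D4:**
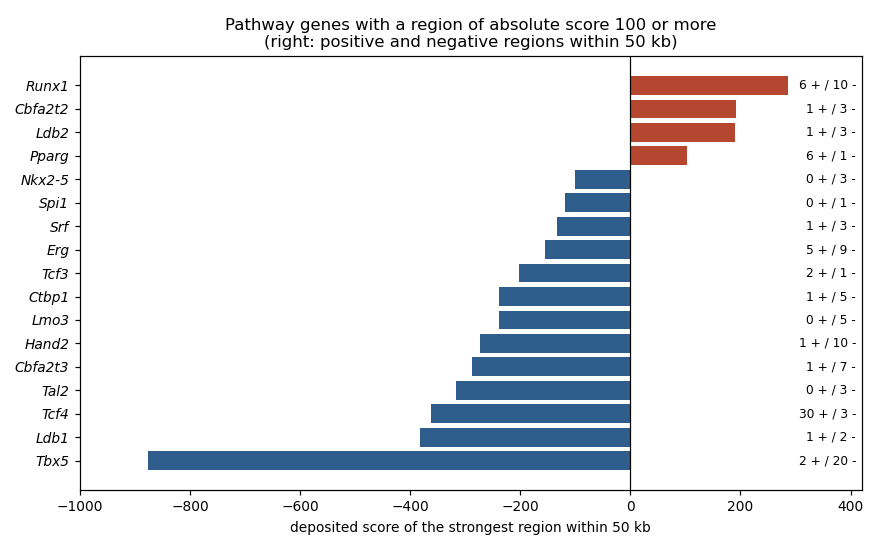
Deposited score of the strongest region within 50 kb for the 17 genes of the wider list with a region of absolute score 100 or more; numbers at the right give the positive and negative regions of each gene. The strongest region is negative at 13 of the 17, with Tbx5 (-876) farthest from 0, and positive at Runx1, Cbfa2t2, Ldb2 and Pparg.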

How the data were processed

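The deposited list holds 1 signed score per differentially methylated region between the PDGFRα+ and CD137+ libraries. The authors made it on mm10, as the submitters' processing notes say. For the aligner, the region caller and its thresholds, nothing was given in the sources used here. The depth is therefore unknown. No coverage filter or test of a region was possible. The list was read as BED and positions are printed counting from 1. No region overlapped another (0).

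Gene ends came from a RefSeq table of GRCm38.p6. Strand and start sites were taken from RefSeq promoter entries where matched, and distances to a start use the region's centre. Overlaps were counted in Python 3.11.15 with pandas 2.3.3, numpy 2.4.6 and scipy 1.17.1. On simulated regions of chromosome 19 the counts differed from direct counting for 0 genes. A strong region has an absolute score of at least 100. Percentiles and ranks are within the list.

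The genes, the lists and the rules for what is named were chosen with earlier results of these data known. All 10 genes are described, each with its strongest regions, all those within 5 kb, and all of them where there are 8 or fewer. Genes of the wider list are named where they have a strong region, or as 0 counts and fat cell genes added after their values were seen. Protein sequences were not used here. Alternatives changed the window, the minimum score or width, and the handling of neighbouring genes.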

Additional observations from a re-analysis of the deposited data

How the results depend on the processing

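No paired analysis was possible because each group has 1 library, and no library could be left out. Of 10 genes, 9 had a region. The count was 6 with gene bodies only and between 8 and 9 with 5 kb or 100 kb windows, a width of 100 bp or more, or either treatment of neighbouring genes. It was 5 for absolute scores of 100 or more. The number of regions, 51, moved to 31 with gene bodies only and to 14 for scores of 100 or more, and was between 36 and 72 otherwise. The median per gene, 5, was 3 with gene bodies only, with 5 kb, without regions inside another coding gene, and with only regions nearest to the gene; it was 8 with 100 kb and 1 for scores of 100 or more. The positive share, 29.4%, was between 23.7% and 35.0% under all of these except scores of 100 or more, where it was 57.1% (8 of 14). These shifts follow from how each alternative adds or drops regions. The strongest score changed sign at Gata4, to 56.7 with gene bodies only or 5 kb, and at Lyl1, to -29.9 without regions inside another coding gene. Of the other values of the strongest score, 45 did not move and 6 did, without a change of sign. A minimum score of 100 cannot displace a stronger score, so part of the 45 was fixed in advance. Settings that left a gene without a region gave no value, as at Gata4, Gata5, Zfpm2 and Lmo2 for scores of 100 or more. The unknown depth and the undefined sign limit every value.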

Other observations

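Marker genes of other cell types that express GATA factors were counted within 50 kb in the same way. Blood markers had regions at 6 of 11 genes, 15 negative and 2 positive, with a strong region at Vav1 (-109.6) and Kit (-117) and none at Ptprc, Cd68, Itgam, Cd3e and Cd79a. Endothelial markers had regions at 8 of 9 genes, 17 of each sign, the strongest at Kdr (-369) and Eng (205). Mesothelial markers had regions at 6 of 7 genes, 20 negative and 10 positive, of which Wt1 held 11 and 8, with a strongest score of 463, and Lrrn4 scored -251. Strong regions were at 2 of the 11 blood, 4 of the 9 endothelial and 2 of the 7 mesothelial markers. Of all protein-coding genes, 68.5% had a region and 24.8% a strong one, and 67.4% of all regions in the list were negative. These marker regions were not at the GATA genes, and whether other cell types had a part in the GATA regions was not tested.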
